A study of Mus musculus with 6 samples.

Results

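The 8 genes Cd3e, Cd3d, Cd3g, Cd247, Cd4, Cd8a, Cd8b1 and Lck encode the CD3 chains of the T cell receptor (TCR) complex, the CD4 and CD8 coreceptors and the kinase Lck. They were taken by symbol from the deposited table, which listed 22322 genes, and all 8 passed the filter on low counts together with 11488 genes in all. RNA-seq was performed on CD4+CD8+ (DP) thymocytes, the stage of T cell development at which both coreceptors are carried, sorted from untreated mice on the C57BL/6 background that were 4 to 7 weeks old. The control group (3 libraries) was Paxbp1 fl/fl and the Paxbp1 cKO group (3 libraries) was Paxbp1 fl/fl with an Lck-cre transgene, so both groups carried the loxP-flanked exon 8 alleles of Paxbp1, and the controls were littermates without the transgene. The control libraries are titled WT in the labels, and their floxed littermate genotype comes from the study's methods. The cKO libraries are titled Lck-KO in the labels after the Cre driver, and the endogenous Lck gene was not a target. Cre was driven by Lck regulatory sequence from early thymocyte stages, so loss of Paxbp1 and the presence of Cre cannot be told apart in this design. Surface CD4 and CD8 were the sort gate in both groups.

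Each TCR recognises a peptide held by an MHC molecule but has no signalling tail of its own. Signals pass through the CD3 chains, which assemble as CD3ε with CD3γ, CD3ε with CD3δ and a CD3ζ homodimer encoded by Cd247, and whose cytoplasmic tails carry the tyrosine motifs called ITAMs. Lck phosphorylates the ITAMs, and CD4 (with MHC class II) or CD8 (with MHC class I) brings Lck to the engaged receptor. In DP thymocytes this machinery reads out positive and negative selection.

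The libraries held 18963775 to 26252248 counts, so that 1 count was 0.0381 to 0.0527 CPM (counts per 1000000 counts) and the lowest of the 8 genes, at a mean of 228 CPM, was far above counting error. Controls and cKO libraries lay on opposite sides of the first principal component, which held 38.9% of the variance. Control 1 lay apart from the other controls on the second (18.1% of the variance; 36.6 against -13.8 and -14.6), and was the lowest control for 5 of the 8 genes. Mitochondrial genes took 1.45% to 3.19% of counts, the most in cKO 1. Paxbp1 itself had 774, 318 and 400 counts in the controls and 851, 905 and 1075 in the cKO libraries (log2 fold change 0.92 ± 0.33 (SE), edgeR adjusted p = 0.0977). DESeq2 (adjusted p = 0.0213) and limma-voom (0.0390) called it higher, as did edgeR without control 1 (log2 fold change 1.501, adjusted p = 0.00170). Whole-gene counts do not measure the deleted exon, so Paxbp1 does not check the genotype labels here. By qPCR, the study reported markedly lower Paxbp1 RNA in double-negative cKO thymocytes and complete deletion by the immature single-positive stage. Its western blot showed efficient loss of the protein in sorted double-negative and DP thymocytes. The labels do not say whether replicates came from separate mice, so p-values measure the spread between these libraries. In sorted bulk cells, fewer cells of a type and less RNA per cell cannot be told apart.

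All 8 genes had lower mean levels in Paxbp1 cKO than in control DP thymocytes, by log2 fold changes of -0.61 to -0.24. A log2 fold change below 0, with no test, was found for 50.2% of tested genes and for 52.7% of the 895 tested genes at or above the mean level of Cd4, the lowest of the 8. Cd3e, Cd3g, Cd8b1 and Lck were downregulated at an adjusted p below 0.05 (edgeR quasi-likelihood test over all tested genes, two-sided), whereas Cd3d, Cd247, Cd4 and Cd8a did not pass. The 4 of 8 compared with 5.89% of all tested genes that were called lower, and with 13.3% of those 895. None of the 8 was called higher, which 4.47% of tested genes were; no gene of the 8 had an unadjusted p below 0.05 in that direction by edgeR, DESeq2 or limma-voom. The median log2 fold change of the 8 was -0.44, beside -0.0017 over all tested genes and -0.018 over those 895. In 6 of the 8 every cKO library was below every control library, which held for 17.3% of tested genes and for 28.4% of the 895; Cd3d and Cd8a were the exceptions. No gene of the 8 reached a log2 fold change of -1, a fall that 1.23% of tested genes passed at the same adjusted p.

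**Figure D1:**
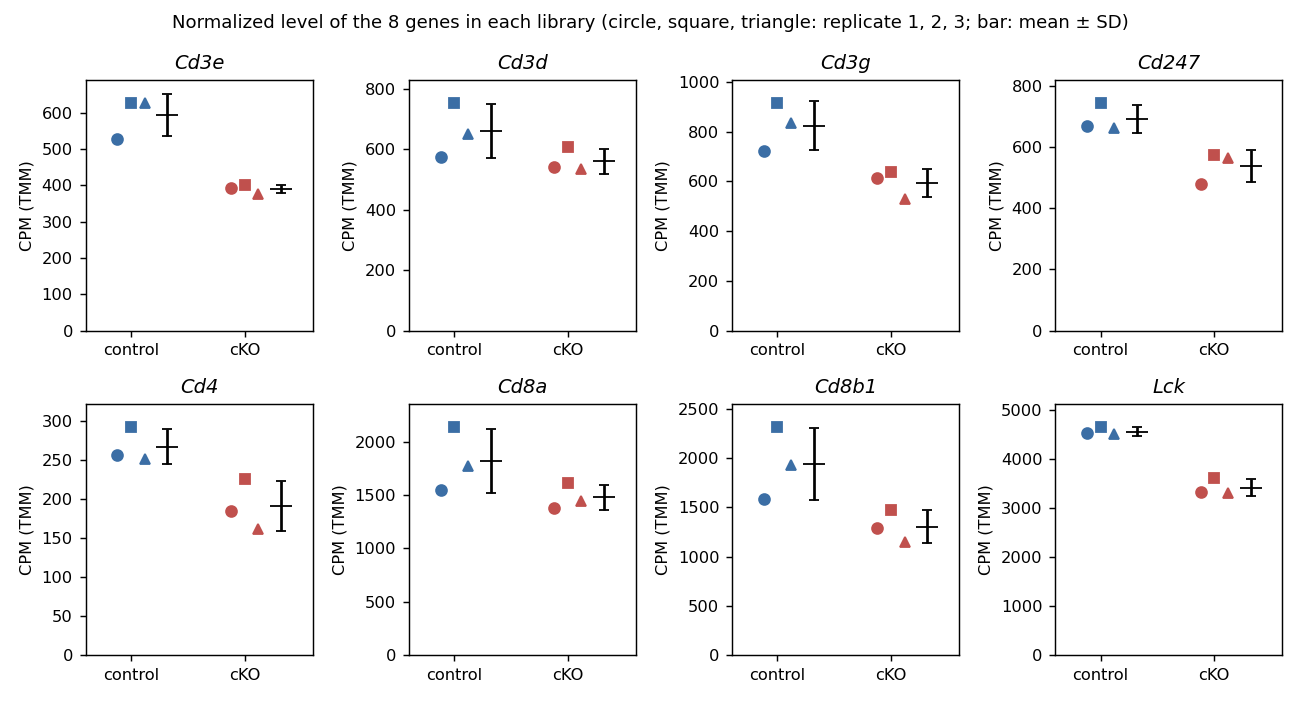
Normalized level (CPM, with TMM scaling) of each of the 8 genes in the 3 control (blue) and 3 Paxbp1 cKO (red) libraries, with circles, squares and triangles for replicates 1, 2 and 3 and black bars for mean ± SD. The groups are separate for 6 genes, overlap for Cd3d and Cd8a, and the square of replicate 2 is the highest point of each group for every gene.

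**Figure D2:**
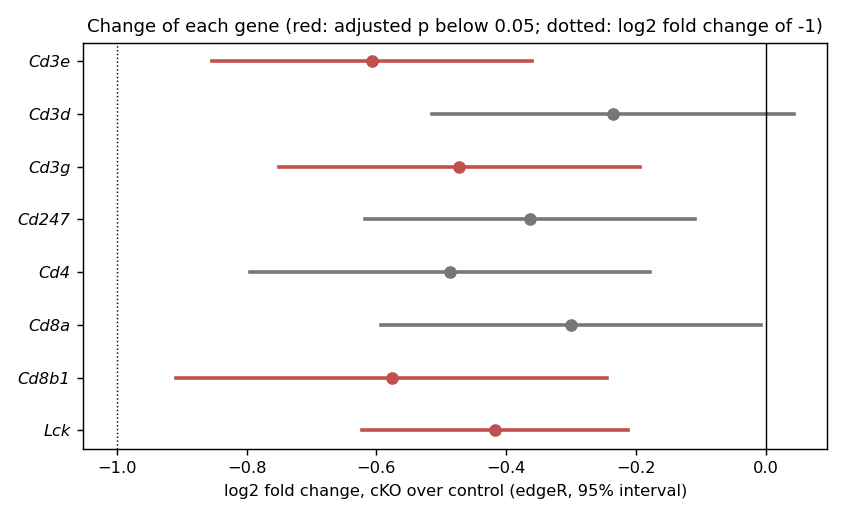
Log2 fold change of Paxbp1 cKO over control for each gene from edgeR, with its 95% interval as a line and genes with an adjusted p below 0.05 in red. The points run from -0.61 for Cd3e to -0.24 for Cd3d, the only interval that crosses 0, and the dotted line marks a log2 fold change of -1.

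Cd3e, Cd3d and Cd3g lie side by side on mouse chromosome 9 (GRCm38, GENCODE M21) and had fitted log2 fold changes of -0.61, -0.24 and -0.47. Cd3g (ENSMUSG00000002033, positions 44969572 to 44980431, minus strand, 7 exons) and Cd3d (ENSMUSG00000032094, 44981786 to 44987339, plus strand, 5 exons) are transcribed away from each other across a gap of 1354 bases. Cd3e (ENSMUSG00000032093, 44998740 to 45009627, minus strand, 8 exons) begins on the far side of Cd3d, with 11400 bases between the nearest ends. The 250 bases before the RefSeq start site of each (GRCm38.p6, printed 5′ to 3′ on the strand of the gene) are shown as a description. These neighbours were called differently, and any link between the calls and the windows was not tested. Capitals mark matches on either strand to CAGGTG (an E-box form), TGTGGT (a RUNX motif) and AGGAAG (an ETS motif), which read CACCTG (E-box), ACCACA (RUNX) and CTTCCT (ETS) where they lie on the other strand. The windows are chr9:45009612-45009861 (minus) for Cd3e, chr9:44981536-44981785 (plus) for Cd3d and chr9:44980432-44980681 (minus) for Cd3g.
Cd3e: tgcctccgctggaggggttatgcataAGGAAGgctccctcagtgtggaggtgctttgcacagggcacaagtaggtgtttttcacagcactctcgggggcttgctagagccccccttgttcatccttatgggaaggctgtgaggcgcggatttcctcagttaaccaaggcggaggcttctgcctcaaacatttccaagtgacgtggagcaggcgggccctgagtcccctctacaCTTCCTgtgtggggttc
Cd3d: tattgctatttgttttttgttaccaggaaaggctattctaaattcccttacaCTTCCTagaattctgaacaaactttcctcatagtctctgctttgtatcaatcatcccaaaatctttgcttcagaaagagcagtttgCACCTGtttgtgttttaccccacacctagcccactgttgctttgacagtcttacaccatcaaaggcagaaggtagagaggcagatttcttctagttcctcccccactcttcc
Cd3g: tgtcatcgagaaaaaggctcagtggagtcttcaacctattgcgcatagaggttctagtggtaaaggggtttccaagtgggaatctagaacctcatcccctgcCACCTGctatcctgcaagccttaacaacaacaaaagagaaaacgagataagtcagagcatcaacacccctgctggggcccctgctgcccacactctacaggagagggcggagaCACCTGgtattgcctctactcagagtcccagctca
Cd3e had AGGAAG at 224 and CTTCCT at 17 bases before the start, Cd3d had CTTCCT at 198 and CACCTG at 112, and Cd3g had CACCTG at 148 and at 35. Over the 7 windows found for 6 of the genes, 4 held the E-box form, 5 the ETS motif and 1 the RUNX motif. The same letters occurred in 15.4%, 28.0% and 10.8% of 11650 windows of tested genes, respectively, and such a match is a description of sequence, not of binding.

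Cd3e, which encodes the ε chain shared by both CD3 heterodimers, had the largest fall of the 8. Its level was 528, 629 and 626 CPM in the controls and 392, 401 and 378 CPM in the cKO libraries. The groups did not overlap, and the 3 cKO libraries lay closer together than the controls. The mean fell from 594 ± 57.7 to 390 ± 11.8 CPM (SD, n = 3 each), or to 65.7% of control, with a log2 fold change of -0.61 ± 0.11 (SE) and an edgeR adjusted p of 0.0104. An antisense gene, Gm48719, shares 135 bases with the main Cd3e transcript, and reads of the pair cannot be separated if counting ignored strand, which was not stated. The call was lost without control library 2 (adjusted p = 0.0511) or without cKO library 3 (0.0709).

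Cd3g, which encodes the γ chain, was lower by a smaller margin. It was at 721, 918 and 836 CPM in the controls and 616, 638 and 530 CPM in the cKO libraries. Every cKO library was below the lowest control, control 1. The mean fell from 825 ± 98.8 to 595 ± 57.0 CPM (SD, n = 3 each), a log2 fold change of -0.47 ± 0.13 (SE) at an edgeR adjusted p of 0.0407. Leaving out a library kept this call in 1 of 6 cases, with adjusted p from 0.00734 to 0.172.

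Cd3d, which encodes the δ chain, was not called. Its level was 574, 755 and 652 CPM in the controls and 540, 609 and 534 CPM in the cKO libraries. The cKO 2 library was above control 1, so the groups overlapped. The log2 fold change was -0.24 ± 0.13 (SE), with a 95% interval from -0.51 to 0.04 and an edgeR adjusted p of 0.254, so that a fall as large as that of Cd3g lay inside the interval. Leaving out control 2 gave -0.13 (edgeR adjusted p = 0.633) and leaving out control 1 gave -0.33 (0.0531).

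Cd247 (ENSMUSG00000005763, chromosome 1, 165788681 to 165877277, plus strand, 8 exons) encodes the ζ chain, which carries more ITAMs than the other CD3 chains. It was at 670, 745 and 662 CPM in the controls and 478, 573 and 563 CPM in the cKO libraries. The groups were separate, with cKO 1 the lowest. The mean was 693 ± 45.9 in control and 538 ± 52.2 CPM in cKO (SD, n = 3 each), a log2 fold change of -0.36 ± 0.11 (SE) that missed the threshold at an edgeR adjusted p of 0.0688. DESeq2 gave 0.0327 for the same difference. A transcript on the same strand, Gm16565, shares 198 bases with the main Cd247 transcript. Pou2f1, on the opposite strand, shares 3007 exon bases with other Cd247 transcripts and 0 with the main one. Pou2f1 had 5513 counts over all libraries.

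Of the genes for the CD8 partners, Cd8b1 was called lower and Cd8a was not. Cd8a (ENSMUSG00000053977, chromosome 6, 71373427 to 71379173, plus strand, 5 exons) and Cd8b1 (ENSMUSG00000053044, 71322788 to 71337494, plus strand, 6 exons) are 35932 bases apart and encode the α and β chains of the CD8 heterodimer. CD8α holds the site that binds Lck, and CD8β strengthens coreceptor function on thymocytes. Cd8b1 was at 1587, 2319 and 1933 CPM in the controls and 1287, 1477 and 1151 CPM in the cKO libraries. No cKO library reached the lowest control, although the controls themselves spread widely. The mean fell from 1946 ± 366 to 1305 ± 164 CPM (SD, n = 3 each), a log2 fold change of -0.58 ± 0.15 (SE) at an edgeR adjusted p of 0.0383. Leaving out a library moved that p between 0.00546 and 0.161.

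Cd8a was at 1548, 2141 and 1773 CPM in the controls and 1376, 1612 and 1448 CPM in the cKO libraries. The cKO 2 library again exceeded control 1, as for Cd3d. The log2 fold change was -0.30 ± 0.13 (SE), with a 95% interval from -0.59 to -0.0067 and an edgeR adjusted p of 0.171. It passed the threshold in 1 of 15 alternatives, without control library 1 (log2 fold change -0.41, adjusted p = 0.0285), and leaving out control 2 gave -0.17 (0.511). None of the 3 motifs lay in the 250 bases before its RefSeq start.

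Cd4 (ENSMUSG00000023274, chromosome 6, 124864692 to 124888221, minus strand, 10 exons) encodes the MHC class II coreceptor, whose tail also binds Lck. Its level was 256, 292 and 251 CPM in the controls and 184, 225 and 162 CPM in the cKO libraries. The groups were separate. The mean was 266 ± 22.4 in control and 190 ± 32.1 CPM in cKO (SD, n = 3 each), a log2 fold change of -0.49 ± 0.14 (SE) just outside the threshold at an edgeR adjusted p of 0.0515. Its fitted change was larger than those of the called genes Cd3g and Lck, and it was called in 8 of 15 alternatives, with adjusted p from 0.0154 by DESeq2 to 0.200 when a library was left out.

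Lck (ENSMUSG00000000409, chromosome 4, 129548344 to 129573641, minus strand, 12 exons) encodes the kinase that phosphorylates the CD3 ITAMs. RefSeq lists start sites of Lck that are 15269 bases apart, and the gene counts pool transcripts from both, so the windows before each are shown. They are chr4:129573642-129573891 for the upstream start and chr4:129558373-129558622 for the downstream start (GRCm38.p6, minus strand), with capitals as for the CD3 genes.
Lck upstream start: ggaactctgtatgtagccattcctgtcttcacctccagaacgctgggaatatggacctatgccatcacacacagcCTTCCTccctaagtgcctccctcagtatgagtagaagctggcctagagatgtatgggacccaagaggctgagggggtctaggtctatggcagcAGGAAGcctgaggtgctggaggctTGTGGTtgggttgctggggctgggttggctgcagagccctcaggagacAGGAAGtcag
Lck downstream start: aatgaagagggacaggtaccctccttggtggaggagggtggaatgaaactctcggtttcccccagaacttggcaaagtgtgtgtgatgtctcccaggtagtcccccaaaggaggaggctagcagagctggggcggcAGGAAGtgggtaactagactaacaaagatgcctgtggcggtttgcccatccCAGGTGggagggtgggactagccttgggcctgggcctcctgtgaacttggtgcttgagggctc
The upstream window held CTTCCT at 175, AGGAAG at 82 and 10 and TGTGGT at 58 bases before the start, and the downstream window held AGGAAG at 114 and CAGGTG at 63. Lck was at 4516, 4651 and 4497 CPM in the controls and 3313, 3609 and 3312 CPM in the cKO libraries. The controls were almost level and every cKO library lay well below them. The mean fell from 4555 ± 84.0 to 3411 ± 171 CPM (SD, n = 3 each), a log2 fold change of -0.42 ± 0.09 (SE) at an edgeR adjusted p of 0.0212. Its SE was the smallest of the 8, and its call held in 2 of 6 cases with a library left out and in 9 of 9 other alternatives. Whether sequence in the transgene contributed reads to Lck in the cKO libraries was not tested.

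The exact permutation test of log2 CPM (3 against 3, two-sided, smallest p possible 0.1) gave 0.1 for the 6 genes without overlap and 0.2 for Cd3d and Cd8a. Which genes passed depended on single libraries. Without control 1, 7 of the 8 were called lower, beside 8.68% of tested genes. Without control 3 or without cKO 1, only Cd3e remained called, and without cKO 2 Cd3e, Cd4 and Lck were. Without control 2 or without cKO 3, 0 of the 8 were called by edgeR, beside 1.98% and 0.666% of tested genes, while 6 of the 8 had an unadjusted p below 0.05 in each case. Other tools on all 6 libraries called 6 (DESeq2) and 5 (limma-voom) of the 8. The direction was lower in 120 of 120 combinations of gene and alternative. These refits reuse the same libraries, so they are not independent repeats.

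**Figure D3:**
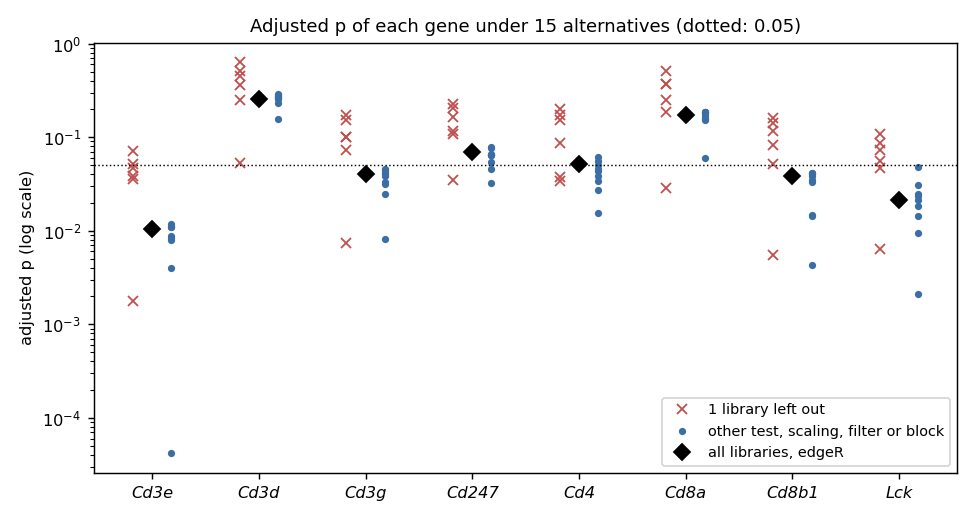
Adjusted p (log axis) of each gene with all libraries in edgeR (black diamonds), with 1 library left out (red crosses) and under other tests, scalings, filters or a replicate block (blue points), with the threshold of 0.05 dotted. Cd3e crosses the line in 2 of 15 alternatives, whereas Cd3d stays above it in 15 of 15.

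Levels of different genes were compared on the deposited FPKM, which is per transcript length. In control DP thymocytes the order was Lck (2100 ± 44.7 FPKM), Cd8b1 (1301 ± 233), Cd3g (811 ± 88.6), Cd8a (589 ± 92.9), Cd247 (422 ± 27.0), Cd3d (405 ± 51.7), Cd3e (403 ± 33.6) and Cd4 (85.1 ± 6.99; SD, n = 3). Neighbours in this order had separate ranges except Cd247 with Cd3d and Cd3d with Cd3e. Lck was thus 24.7-fold above Cd4 in control and 25.9-fold above it in cKO. In cKO DP thymocytes the order was Lck (1595 ± 88.3 FPKM), Cd8b1 (886 ± 117), Cd3g (594 ± 59.4), Cd8a (483 ± 42.2), Cd3d (349 ± 28.5), Cd247 (332 ± 32), Cd3e (269 ± 10.03) and Cd4 (61.6 ± 10.8; SD, n = 3). There Cd3e lay below Cd3d and Cd247 without overlap, whereas in control it overlapped with Cd3d. Together the 8 genes took 1.13% ± 0.0923 of all counts in control and 0.852% ± 0.0644 in cKO libraries (SD, n = 3 each).

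Ratios between partners within a library, which no scaling factor can move, asked whether chains of a complex fell together. Cd3d stood higher relative to Cd3e in the cKO group. The FPKM ratio of Cd3d to Cd3e was 0.984, 1.09 and 0.941 in the controls and 1.25, 1.38 and 1.28 in the cKO libraries. Control libraries thus had about as much Cd3d as Cd3e, and every cKO library had more Cd3d than Cd3e. Cd3g over Cd3d was 2.01, 1.95 and 2.06 in the controls and 1.83, 1.67 and 1.6 in the cKO libraries, again without overlap. Cd8b1 over Cd8a was 2.12, 2.23 and 2.25 in the controls and 1.94, 1.90 and 1.65 in the cKO libraries. These 3 ratios were the separate ones of 8 compared, with differences in log2 count ratio of 0.37, -0.24 and -0.28 (exact permutation p = 0.1 each, the smallest possible; 0.267 after adjustment over the 8). The other 5 ratios overlapped between groups, and no ratio could pass the threshold in this design. The ratios share genes, so they are not independent, and they restate differences between the fold changes given above. How often ratios of other gene pairs separate the groups was not computed. Cd3g over Cd3e, Cd247 over Cd3e, Cd4 over Cd8a, Lck over Cd4 and Lck over Cd8a differed by 0.13, 0.24, -0.21, 0.079 and -0.13 on the log2 scale, with exact permutation p from 0.2 to 0.4.

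**Figure D4:**
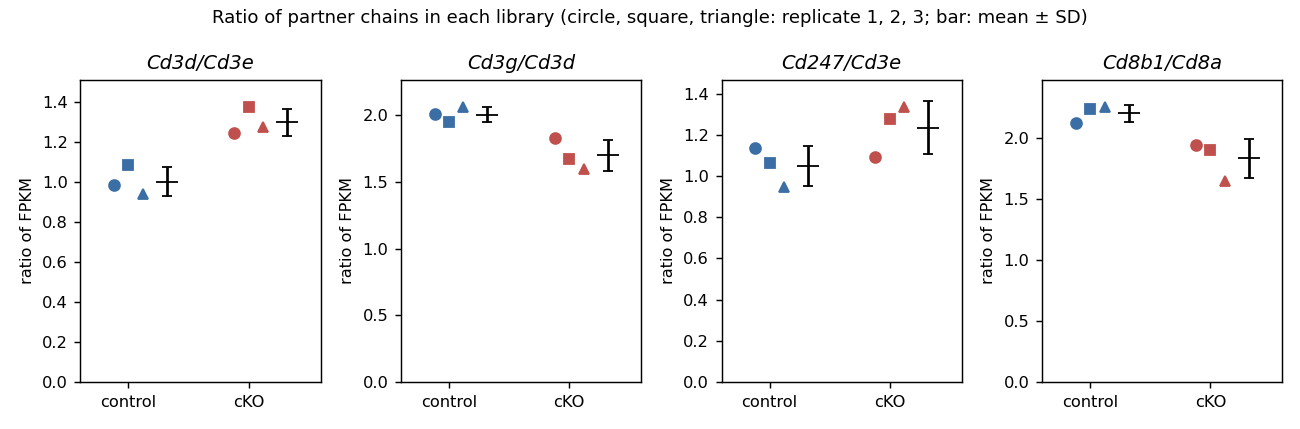
Ratio of deposited FPKM between partner chains in each library, with symbols as in the plot of levels and black bars for mean ± SD. The groups are separate for Cd3d/Cd3e (1.0 ± 0.0739 against 1.30 ± 0.0681), Cd3g/Cd3d and Cd8b1/Cd8a and overlap for Cd247/Cd3e.

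The 8 genes shared their highest library in each group. Control 2 was the highest of all 6 libraries for 8 of 8 genes and cKO 2 the highest cKO library for 8 of 8, while cKO 3 was the lowest library for 6 and cKO 1 for the other 2. The share of all tested genes with the same highest libraries was not counted, so this order is not shown to be particular to the 8. Among 4572 tested genes with a mean of at least 50 CPM, likeness was measured as the root mean square difference of centred log2 CPM over the 6 libraries. The nearest genes were Tm9sf1 for Cd3e (0.0414), Rhno1 for Cd3d (0.0290), Spata6 for Cd3g (0.0442), Dnajc7 for Cd247 (0.0490), Ostm1 for Cd8a (0.0411), Icam2 for Cd8b1 (0.0485) and Prep for Lck (0.0333). None of these nearest genes was a member of the receptor complex. Cd3d and Cd8a, from different chromosomes, were among the closest genes to each other (0.0469), with Cd8a ranked 3 of 4572 by likeness to Cd3d and Cd3d ranked 4 by likeness to Cd8a. The compared profiles include the difference between groups. A nearest gene therefore has a similar fold change by selection, and its fall is not a separate result.

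Within 100000 bases of the 8 genes, 33 other tested genes were annotated, of which 6 were called lower and 1 higher, beside 5.89% and 4.47% of all tested genes. Their median log2 fold change was -0.094, beside -0.0017 over all tested genes, and 20 of 33 were below 0. Rmnd5a, 9460 bases from Cd8a, had a log2 fold change of -0.92 ± 0.13 (SE, edgeR adjusted p = 0.00461), a larger fitted fall than either CD8 gene. Lag3, which encodes a CD4-related inhibitory receptor and lies 16139 bases from Cd4, had -1.63 ± 0.27 (0.00825), and its neighbour Ptms had -0.89 ± 0.16 (0.00953). Ube4a, 3971 bases from Cd3g, fell (-0.57 ± 0.16, 0.0446), as did Rcsd1 near Cd247 (-0.53 ± 0.11, 0.0153) and Ccdc28b near Lck (-0.92 ± 0.18, 0.0124). Mpzl2, 30171 bases from Cd3e, was the gene called higher (1.58 ± 0.32, 0.0156). The closest neighbours of Cd4 and Cd8b1, Gpr162 (708 bases) and Smyd1 (554 bases), had log2 fold changes of -0.17 and -0.0097 and were not called.

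The genes that work with the 8 were described in 7 lists of 100 genes, 97 of them tested. Of the 97, 18 were called lower and 8 higher, beside 5.89% and 4.47% of all tested genes. Among the 895 tested genes at or above the mean level of Cd4, 13.3% were called lower. The lists were not matched for level. The median log2 fold change of the 97 was -0.23, beside -0.0017 over all tested genes. Among the 8 TCR chain genes, 2 fell and 3 rose (median 0.046). Trac, the constant part of the α chain that CD3δε binds, fell from 551 ± 58.2 to 346 ± 34.2 CPM (log2 fold change -0.67, edgeR adjusted p = 0.0103), and Trbc2 of the β chain fell by 0.39 on the log2 scale (0.0450). The γ chain constant genes Trgc1 (2.77 to 7.76 CPM, 0.0216), Trgc2 (2.34 to 10.9 CPM, 0.0236) and Trgc4 rose from low levels. Trbc1 and Trbc2, and Trgc1 and Trgc2, are near-identical copies, so the split of reads within each pair is uncertain. Of the list of other signalling adaptors, 4 of 5 were tested and 2 fell (median 0.77): Cd79b, an ITAM chain of the B cell receptor (-0.70, 0.0194), and Hcst, which signals without an ITAM (-1.23, 0.0314). Fcer1g (2.36, 0.0734) and Tyrobp (2.23, 0.0570) were higher in cKO at means of 1.07 and 1.23 CPM and were not called by edgeR. DESeq2 called 2 of the 4 tested genes higher and 2 lower.

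Of 17 kinases, phosphatases and anchors around Lck, 3 rose and 2 fell (median -0.13). The chaperones Hsp90ab1 (1076 ± 135 to 1679 ± 124 CPM, log2 fold change 0.64, edgeR adjusted p = 0.0113) and Hsp90aa1 (0.63, 0.0145), on which Lck relies for stability, rose, as did the phosphatase gene Ptpn2 (0.69, 0.0173). Ptprc, which encodes the CD45 phosphatase that removes the inhibitory phosphate of Lck, fell from 2420 ± 178 to 1775 ± 170 CPM (-0.45, 0.0321), and Fyn, the other Src family kinase of thymocytes, was also called lower. Of 25 adaptors and enzymes that act below CD3 and Lck, 6 fell and 0 rose (median -0.28), with 1 higher at an unadjusted p below 0.05 by each of the 3 tools and 0 called higher by DESeq2 or limma-voom. They were Prkcq (PKCθ, -0.56, 0.0245), the exchange factor gene Vav1 (-0.41, 0.0342), Plcg1 (phospholipase Cγ1, -0.49, 0.0383), Grap2 (the adaptor GADS, -0.47, 0.0390), Lcp2 (SLP-76) and Skap1.

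Of 10 receptors that tune TCR signals, 2 rose and 1 fell (median -0.11). The tetraspanin gene Cd82 rose from 11.2 ± 2.07 to 31.2 ± 8.98 CPM (log2 fold change 1.48, edgeR adjusted p = 0.00825), and Cd27, a TNF receptor family member, fell (-0.60, 0.0166). Cd69, an early activation marker, rose from 160 ± 40.9 to 443 ± 247 CPM (1.47, 0.0344) with overlap between the groups. Of 10 tested genes for the turnover of CD3, CD4 and Lck, 1 fell, the CIN85 adaptor gene Sh3kbp1 (-0.41, 0.0282), and the median was -0.33. Of 23 tested transcriptional regulators of the Cd4, Cd8 and Cd3 loci, 4 fell and 0 rose (median -0.25). At an unadjusted p below 0.05, 0 were higher by edgeR, 1 by DESeq2 and 1 by limma-voom, and neither of the latter tools called any higher. Bcl11b, a factor of T cell identity, fell from 559 ± 70.8 to 311 ± 27.6 CPM (-0.84, 0.00613), and Satb1, a chromatin organiser of thymocytes, fell from 4651 ± 398 to 2915 ± 293 CPM (-0.67, 0.00825). Smarca4, the BRG1 ATPase of the SWI/SNF complex (-0.43, 0.0238), and Ikzf1, which encodes Ikaros (-0.40, 0.0287), fell as well, all of them by edgeR.

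**Figure D5:**
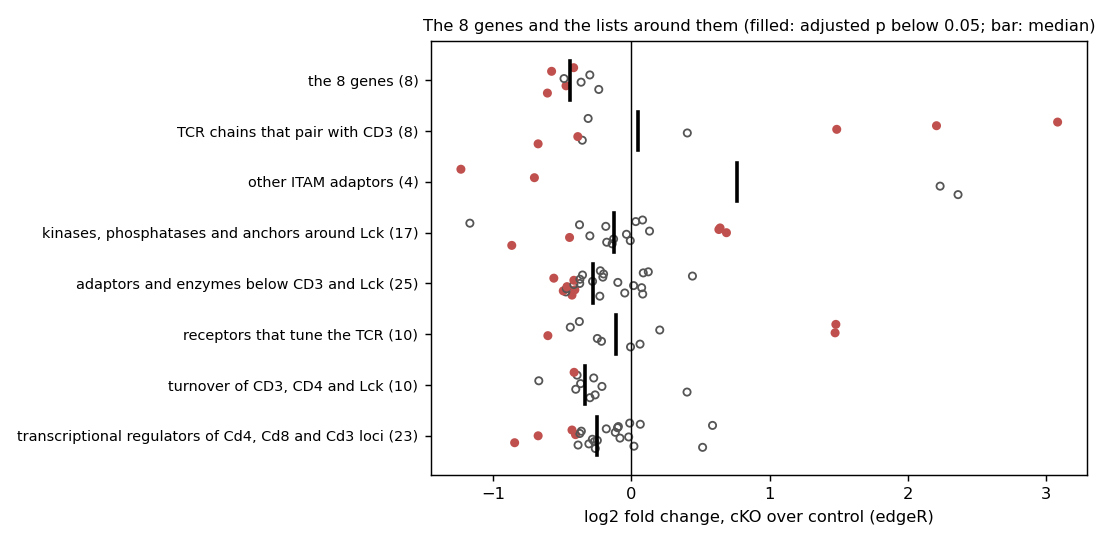
Log2 fold change of Paxbp1 cKO over control (edgeR) of every tested gene of the 8 and of the 7 lists around them, with filled points for an adjusted p below 0.05, vertical bars for list medians and the number tested in brackets. The median of the 8 genes is -0.44 and those of the 7 lists run from -0.33 to 0.77, with calls in both directions among TCR chains, Lck partners and tuning receptors.

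Marker genes of stages and other cells were read beside these values. Of 9 tested DP stage markers, 9 had a log2 fold change below 0 (median -0.37), beside 50.2% of all tested genes. Of these, 2 were called lower (Cd1d1 and Rag1). Over all tested genes, 5.89% were called lower and 4.47% higher. The summed list was 8515 to 9914 CPM in control and 6514 to 7905 CPM in cKO libraries. Markers of earlier stages (CD4-CD8- and immature single-positive cells) summed to 218 to 284 CPM in control and 313 to 339 in cKO, with 3 of 10 tested called higher, and those of late DP and mature stages to 1127 to 1182 and 1435 to 3243 CPM, with 2 of 11 called higher (Nr4a1 and Cd69). In the late list 5 of 11 had a log2 fold change above 0 and 6 below (median -0.34), and in the early list 5 of 10 lay on each side (median 0.12). Macrophage markers summed to 25.2 to 48.7 CPM in control and 69.9 to 92.6 in cKO, with 6 of 14 tested called higher and Mertk at 0 counts in all libraries. Dendritic cell markers summed to 71.3 to 116 and 144 to 204 CPM, with Clec9a at 0. Of 13 listed, 8 were tested, and the 4 called higher were Cd74, H2-Eb1, H2-Aa and Bst2. Markers of NK, innate and γδ T cells summed to 78.7 to 142 and 148 to 177 CPM, with 1 of 6 called higher (Trgc1) and Klrb1c at 0. In this list 6 of 6 had a log2 fold change above 0 (median 1.06). B cell markers summed to 947 to 1298 and 871 to 910 CPM (1 of 3 lower), erythroid markers to 26.7 to 141 and 0.685 to 48.0 CPM, and thymic epithelial markers to 16.8 to 19.5 and 15.6 to 23.4 CPM. No gene of these last lists (5 and 4 tested) was called by edgeR, DESeq2 or limma-voom, with 1 at an unadjusted edgeR p below 0.05, and no neutrophil marker of 8 passed the filter. The part of these shifts in the levels of the 8 genes was not tested.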

How the data were processed

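RNA-seq libraries of sorted DP thymocytes (3 control, 3 Paxbp1 cKO) were compared by the group given in the sample titles (WT and Lck-KO). The authors deposited whole-number read counts per gene and FPKM values for each library. The submitters' processing notes name fastp 0.18.0, Bowtie2 2.2.8, HISAT2, StringTie 1.3.1 and RSEM, with no roles; build, annotation and strand use in counting were not given in the sources used here. In the labels a SMARTER kit is named and in the study's methods another amplification kit, without molecular identifiers in either description, so reads are not independent molecules. The deposited group mean FPKM, log2 ratio, p-value and FDR columns are the authors' own comparison and were not used.

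Counts were filtered with filterByExpr (minimum count 10, minimum total 15), converted to CPM (counts per 1000000 counts) scaled by TMM (factors 0.981 to 1.01) and fitted with edgeR 4.0.16 in R 4.3.3 (glmQLFit and glmQLFTest, genotype only, two-sided), with Benjamini-Hochberg adjustment over 11488 genes and a threshold of 0.05. The script was tested on simulated counts. Exact permutation tests used the 20 assignments of 3 against 3. No pair of libraries agreed within sampling noise (chi-square over degrees of freedom from 19.1 to 64.9). Alternatives were DESeq2 1.42.0, limma 3.58.1 (voom, or log2 of FPKM + 1 for genes with a mean of at least 1 FPKM), RLE, upper-quartile or no scaling factors, no filter or a mean of at least 5 CPM, a replicate block, and each library left out.

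Each list names up to 4 called genes with the smallest adjusted p; Trgc4, Fyn, Lcp2 and Skap1 completed the counts and were added after their values were seen, and of the flanking and nearest genes some are given; the nearest gene to Cd4 is not reported here. The 8 genes and all lists were chosen with earlier results of these data known. Positions come from GENCODE M21 on GRCm38 and promoter windows from RefSeq (GRCm38.p6). RefSeq windows of Cd4 and Cd8b1 were not used here. The motifs were chosen as textbook T-lineage motifs, counted on both strands with overlaps allowed.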

Additional observations from a re-analysis of the deposited data

How the results depend on the processing

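The 8 genes stayed lower in cKO under all 15 alternatives. Over all genes, the 677 called lower and 514 called higher became 969 lower and 943 higher with DESeq2, and with 1 library left out they ranged from 78 to 1030 lower and 42 to 1000 higher. With a log2 fold change past 1 as well, the 141 lower and 176 higher ranged from 45 to 184 and from 28 to 270. With 1 library left out, 0 to 7 of the 8 genes were called lower and 0 to 0 higher, and of the 97 genes in the lists 0 to 30 were called lower and 0 to 10 higher. Log2 ratios then ranged from 0.33 to 0.43 for Cd3d/Cd3e, 0.099 to 0.19 for Cd3g/Cd3e, -0.29 to -0.20 for Cd3g/Cd3d, 0.17 to 0.32 for Cd247/Cd3e, -0.32 to -0.20 for Cd8b1/Cd8a, -0.27 to -0.11 for Cd4/Cd8a, -0.010 to 0.17 for Lck/Cd4 and -0.24 to -0.023 for Lck/Cd8a. Only Lck/Cd4 changed sign, at -0.010 without cKO replicate 3, and the cause was not tested. Same-numbered libraries did not deviate together (correlations 0.0451, 0.0377 and -0.0300), so the numbers were not taken as pairs, and the replicate block called 668 genes lower and 570 higher, 6 of the 8 genes among the lower. With the block, the smallest exact p of a ratio is 0.25. Every setting moved the median of all tested genes by under 0.1 (log2).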
